A study of Mus musculus with 10 samples.

Results

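Gemcitabine is a deoxycytidine analog and a standard chemotherapy of pancreatic cancer, and the genes described here are those that carry it into a cell, activate it, degrade it or supply its target. The 10 genes were chosen by name and not by their values. They are Slc29a1 and Slc29a2 (equilibrative nucleoside transporters), Dck and Cmpk1 (kinases), Cda and Dctd (deaminases), Nt5c (a nucleotidase), and Rrm1, Rrm2 and Rrm2b (subunits of ribonucleotide reductase). They were found by their mouse Ensembl identifiers as 10 of the 55359 rows of the deposited gene table, and all 10 were among the 24560 genes tested, which had a mean normalized count of at least 1.

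The RNA came from orthotopic tumors of KPC K8484 cells. This murine pancreatic cancer line has a mutant Trp53 allele and Pdx1-Cre, and its cells, which expressed luciferase, were injected into the pancreas of immunocompetent C57BL/6 mice (C57BL/6 J in the methods) at 10 weeks of age. One group drank regular water (normoglycemic, CTRL, n = 5 tumors), and the other drank water with 30% dextrose (hyperglycemic, D30, n = 5 tumors) for 14 days. By the methods, the orthotopic experiments used males and females in equal numbers, without a statement for these 10 tumors. Neither labels nor methods place these tumors under gemcitabine. The tumors are named by the columns of the table, N1, N2, N4, N5 and N6 for CTRL and T1, T2, T4, T5 and T7 for D30, since the column numbers are not the replicate numbers of the labels. All tumors share the one cell line, their stroma and immune cells are the host's, and a bulk measurement cannot tell fewer cells of a type from less RNA per cell. The labels call the tumors PDX but give KPC K8484 cells as their source.

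A nucleoside such as gemcitabine does not readily cross the plasma membrane without a transporter, and SLC29A1 carries most of it in many cell types. Deoxycytidine kinase (DCK) adds the first phosphate, the rate-limiting step, and cytidylate kinase (CMPK1) adds the next, after which diphosphate kinases complete the triphosphate that is built into DNA. Cytidine deaminase (CDA) inactivates the free drug, deoxycytidylate deaminase (DCTD) acts on its monophosphate, and 5′-nucleotidases such as NT5C remove phosphate from nucleoside monophosphates. The diphosphate inhibits ribonucleotide reductase, the enzyme that makes the deoxynucleotides with which the drug competes.

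The sequence before the start site is shown for 4 of the genes, the kinase and the deaminase whose ratio did not overlap between the groups (Dck and Cda) and both main subunits of ribonucleotide reductase (Rrm1 and Rrm2). RefSeq's table (GRCm38.p6) held a start site for 9 of the 10 genes, all but Rrm2b. Each line gives the 250 bases before the start, 5′ to 3′ on the gene's strand, with the letters of a GC box (GGGCGG or its reverse, CCGCCC) or a CCAAT box (CCAAT or its reverse) in capitals. The windows lie at chr5:88764763-88765012 on the plus strand for Dck, chr4:138367956-138368205 on the minus strand for Cda, chr7:102441445-102441694 on the plus strand for Rrm1 and chr12:24708004-24708253 on the plus strand for Rrm2.
Dck: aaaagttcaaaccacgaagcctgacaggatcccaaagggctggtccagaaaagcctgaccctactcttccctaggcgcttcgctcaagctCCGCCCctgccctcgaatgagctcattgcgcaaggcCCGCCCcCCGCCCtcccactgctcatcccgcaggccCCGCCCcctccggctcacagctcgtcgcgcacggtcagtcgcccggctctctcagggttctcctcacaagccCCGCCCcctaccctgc
Cda: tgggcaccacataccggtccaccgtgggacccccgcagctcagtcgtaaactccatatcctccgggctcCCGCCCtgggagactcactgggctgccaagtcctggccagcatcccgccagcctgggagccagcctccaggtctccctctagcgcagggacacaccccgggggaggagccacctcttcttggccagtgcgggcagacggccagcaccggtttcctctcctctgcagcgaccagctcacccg
Rrm1: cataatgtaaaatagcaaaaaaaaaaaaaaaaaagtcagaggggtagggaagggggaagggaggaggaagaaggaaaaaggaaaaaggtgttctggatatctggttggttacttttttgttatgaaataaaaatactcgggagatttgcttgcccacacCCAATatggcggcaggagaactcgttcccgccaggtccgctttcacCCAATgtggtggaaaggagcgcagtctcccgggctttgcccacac
Rrm2: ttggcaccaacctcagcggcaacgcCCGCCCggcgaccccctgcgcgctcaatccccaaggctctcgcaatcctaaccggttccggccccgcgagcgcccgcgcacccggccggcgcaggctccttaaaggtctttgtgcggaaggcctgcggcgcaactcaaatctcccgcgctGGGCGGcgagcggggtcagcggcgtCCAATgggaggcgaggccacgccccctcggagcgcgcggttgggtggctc
The Dck window held 5 GC boxes and no CCAAT box, and the Cda window held 1 GC box. The Rrm1 window held 2 CCAAT boxes and no GC box, while the Rrm2 window held 2 GC boxes and 1 CCAAT box. Of 32851 promoter windows of the same length, 32.7% held a GC box and 33.8% a CCAAT box. Both boxes were searched on both strands, and they do not overlap each other in these windows. The letters TTTCCCGC, TTTGGCGC, TTTCGCGC and TTTGCCGC, forms of the site that E2F factors bind in S phase genes, were found in none of the windows of these 9 genes and in 1.86% of all windows.

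The values are normalized counts, that is, the reads of a gene after division by the size factor of its tumor. The reads behind them were recovered and summed to between 29915331 and 42122304 per CTRL tumor and between 29192261 and 37126175 per D30 tumor. The fewest reads of any of the 10 genes in any tumor were 259. Tumor T4 stood apart: of the genes with a mean of at least 100, 42.3% lay more than 1 log2 unit from the mean of the other D30 tumors, against 0.491% to 17.2% for each other tumor within its own group. T4 alone held reads of Y-linked genes (841, against 0 in each other tumor). The equal numbers of males and females that the methods state were not seen in these reads, and the reason was not tested. A fit without T4 leaves out the only tumor with such reads. In T4 the genes with a GC content of at most 45.7% lay at a median of 0.70 above the other D30 tumors on the log2 scale and those with at least 55.1% at -0.85, whereas the other 9 tumors ranged from -0.26 to 0.39 and from -0.42 to 0.29. Genes with transcripts of at most 1925 bases lay at 0.65 in T4 and those of at least 4516 bases at -0.57, against -0.29 to 0.30 and -0.23 to 0.34 elsewhere. In each of these classes the CTRL tumor N1 lay nearest to T4. Relative to the other CTRL tumors it was at 0.39 and -0.42 by GC content and at 0.30 and -0.23 by length. T5 was next in the share of deviating genes, at 17.2%, so the difference of each of the 10 genes is also given without T4 and without T4 and T5. The keratins of the tumor epithelium were high in both groups (Krt8 at 60374 to 124082 normalized counts in CTRL and 79597 to 179473 in D30), whereas Epcam was at 15.9 to 191 and 0 to 62.5. Summed acinar markers ran from 319 to 60088 in the CTRL tumors, highest in N6 and N2, and from 152 to 5537 in the D30 tumors.

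Several of the 10 genes followed T4. Relative to the other D30 tumors, T4 lay at 1.75 for Rrm2b, 1.65 for Cmpk1 and 0.92 for Dck on the log2 scale, genes whose principal transcripts have a GC content of 39.4%, 39.4% and 42.9%. In contrast, Rrm1 (44.4% GC) lay at -0.69 in T4. T4 lay at -1.73 for Slc29a1 (55.3% GC) and -0.57 for Slc29a2 (58.0%), but at 0.85 for Cda (57.1%) and 0.74 for Nt5c (57.7%). Rrm2 (46.0%) was at 0.76 and Dctd (51.0%) at -0.91. Relative to the other CTRL tumors, N1 deviated in the same direction as T4 for Rrm2b (0.69), Dck (0.50), Cmpk1 (0.44), Rrm2 (0.33) and Nt5c (0.29). N1 did so too for Slc29a1 (-0.66) and Slc29a2 (-0.48), but not for Cda (-0.47), Dctd (0.21) or Rrm1 (0.04). The part of GC content in these values was not tested.

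**Figure D1:**
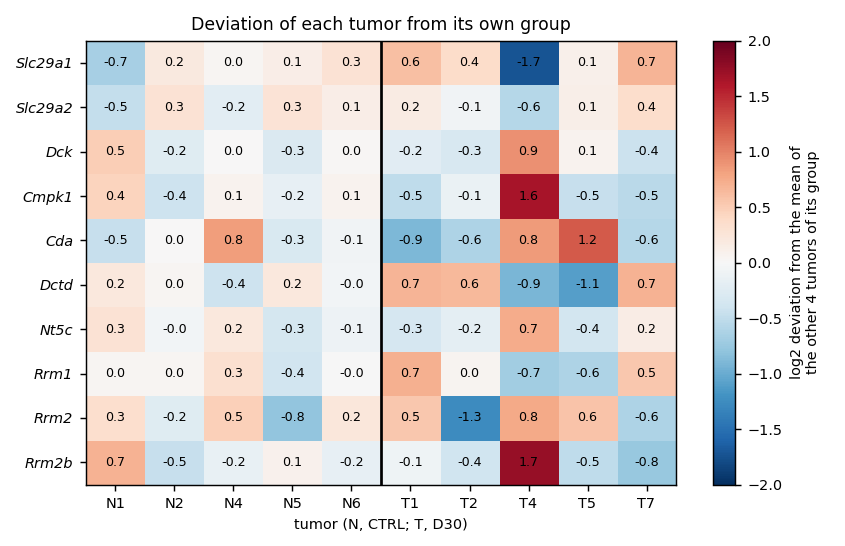
Deviation of each of the 10 genes in each tumor from the mean of the other 4 tumors of its group, in log2 units of normalized count plus 1 (rows, genes; columns, CTRL tumors N1 to N6 and D30 tumors T1 to T7, split by the black line). T4 held the most members deviating by over 1 log2 unit, 3 of 10, and T5 held 2.

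Across all 10 tumors, none of the 10 genes differed between D30 and CTRL at an adjusted p under 0.05 (limma, Benjamini-Hochberg over 24560 genes), in a comparison that called 2.76% of all genes (678). The fitted difference was positive for 6 of the genes and negative for 4, with a median of 0.09 on the log2 scale, and the median of all tested genes was -0.06. At an unadjusted p under 0.05 Cda alone passed, where 17.3% of all genes did. The groups overlapped for all 10 genes, and 6.19% of all genes had groups that did not. Without T4 the picture changed for Dck, which was lower in D30 and called, in a fit that called 6.43% of all genes, and it remained called without T4 and T5, where 9.97% of all genes were.

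**Figure D2:**
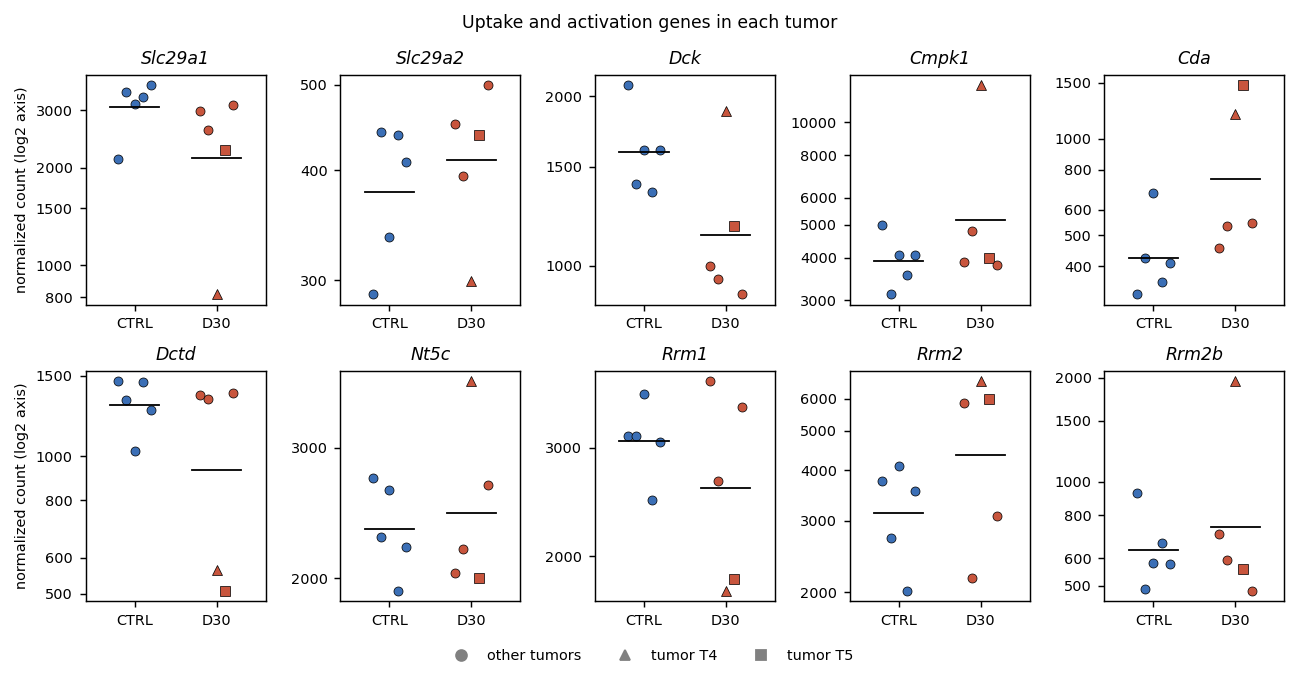
Normalized count of each gene in each tumor (vertical log2 axis, its range set for each gene), with CTRL in blue and D30 in red; triangles mark T4, squares T5, and lines the geometric mean of the 5 tumors. Dck was lower in 4 D30 tumors than in any CTRL tumor, and T4 was the lowest for Slc29a1 and the highest for Cmpk1 and Rrm2b.

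The transporters come first in the path of the drug. Slc29a1 (ENSMUSG00000023942, chr17:45585200-45599606, minus strand), the main equilibrative nucleoside transporter of the plasma membrane, had normalized counts of 2125, 3422, 3142, 3306 and 3589 in N1, N2, N4, N5 and N6 and of 2980, 2612, 817, 2260 and 3106 in T1, T2, T4, T5 and T7. T4 was far below every other tumor, and the other D30 tumors lay inside the CTRL range. The mean was 3117 ± 578 in CTRL and 2355 ± 921 in D30 (SD, n = 5 each). The log2 difference, D30 minus CTRL, was -0.52 (95% interval -1.23 to 0.19; adjusted p = 0.451, limma with Benjamini-Hochberg adjustment), and it was -0.17 (-0.55 to 0.21) without T4 and -0.08 without T4 and T5. The antisense gene Gm17080 overlaps its exons, at a mean of 27.6 normalized counts.

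Slc29a2 (ENSMUSG00000024891, chr19:5023860-5031972, plus strand), the second transporter of this kind, was at 289, 442, 336, 438 and 408 in the CTRL tumors and at 451, 394, 299.6 and 438 in T1, T2, T4 and T5 and 499.6 in T7. The 2 highest values were both in D30 tumors (T1 and T7), but the groups overlapped widely. Between groups the difference was 0.12 on the log2 scale (-0.35 to 0.59; adjusted p = 0.828), 0.23 without T4 and 0.24 without T4 and T5.

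The ratio of reads of Slc29a1 to Slc29a2 within a tumor does not depend on the tumor's size factor. It was 7.35, 7.74, 9.35, 7.54 and 8.79 in the CTRL tumors and 6.60, 6.63, 2.73, 5.15 and 6.22 in the D30 tumors. Every D30 tumor was below every CTRL tumor, also among the D30 tumors other than T4. The mean log2 ratio differed by -0.64, by -0.41 without T4 and by -0.32 without T4 and T5. It was 1 of 6 ratios of these genes that were computed, described here without a test, and 3 of the 6 did not overlap between groups. Of all 74097051 pairs of the 12174 genes with a mean of at least 100 in the same comparison, 9.26% did not overlap.

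Dck (ENSMUSG00000029366, chr5:88764996-88783281, plus strand), whose promoter window is printed above, had normalized counts of 2095, 1394, 1603, 1353 and 1609 in the CTRL tumors. The D30 tumors were at 1000.4, 948, 1886, 1178 and 891 in the order T1, T2, T4, T5 and T7. In 4 of 5 D30 tumors the level was below that of every CTRL tumor, while T4 was above all CTRL tumors but N1. Means were 1611 ± 295 in CTRL and 1181 ± 409 in D30 (SD, n = 5 each), and 1004 ± 124 in the 4 D30 tumors without T4.

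Over all tumors the log2 difference of Dck was -0.49 (95% interval -0.98 to 0.00; adjusted p = 0.293, limma with Benjamini-Hochberg adjustment). Without T4 it was -0.67 (-1.03 to -0.31; adjusted p = 0.0300), and without T4 and T5 it was -0.75 (-1.10 to -0.40; adjusted p = 0.0112). Dck was the only one of the 10 genes whose groups did not overlap without T4, where 12.1% of all genes did not. The difference of Dck was negative under all 22 alternative settings, and it was called only in the 2 that left out T4, with an adjusted p of 0.0112 to 0.454 over them all. Leaving out N1, the CTRL tumor with the highest Dck, and keeping T4 gave -0.39 (adjusted p = 0.450, limma with Benjamini-Hochberg adjustment). No fit left out both N1 and T4.

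Markers of host cell types are given beside Dck. The fitted difference over all tumors was negative for 7 of 7 T cell markers (0 called), with summed levels that ran from 239 to 532 in the CTRL tumors and from 92.7 to 269 in the D30 tumors. It was negative for 7 of 8 macrophage markers (Csf1r called) and for 8 of 8 fibroblast markers (0 called), with summed levels in D30 of 12346 to 72810 and 15568 to 78352 against 28750 to 61697 and 55157 to 94379 in CTRL. The highest macrophage sum was that of T4. Cd3g and Cd2 were each at 0 in 1 D30 tumor. Of the endothelial markers 6 of 7 had a negative difference (Cdh5 called), with sums of 11008 to 18294 in the CTRL tumors and 5516 to 9830.5 in the D30 tumors. Islet markers were negative for 5 of 5 (Ins1, Gcg and Ppy called), with sums of 11.5 to 1285 in the CTRL tumors and 0 to 15.04 in the D30 tumors, and Sst was at 0 in all 5 D30 tumors. In the fit without T4, where Dck and 6.43% of all genes were called, more of these markers were called, all lower. They were Csf1r, Mrc1, C1qb and Lyz2 of macrophages, Fap of fibroblasts, Cdh5 of endothelium and Ins1, Ins2, Gcg and Ppy of islets. No T cell marker was called there. The part of these cell types in the level of Dck was not tested.

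Cmpk1 (ENSMUSG00000028719, chr4:114959336-114987241, minus strand), the kinase of the next step, was at 5003, 3127, 4082, 3564 and 4065 in the CTRL tumors and at 3888, 4794, 12886, 3997 and 3819 in the D30 tumors. T4 was far above every other tumor and the remaining D30 values all lay inside the CTRL range. The log2 difference was 0.40 (-0.27 to 1.07; adjusted p = 0.552) over all tumors, 0.07 (-0.27 to 0.41) without T4 and 0.08 without T4 and T5.

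Cda (ENSMUSG00000028755, chr4:138338424-138367992, minus strand), the deaminase that turns free gemcitabine into an inactive uridine analog, had 327, 425, 677, 357 and 409.8 normalized counts in the CTRL tumors. The D30 tumors were at 455, 533, 1198, 1476 and 545. T4 and T5 were above every CTRL tumor and the other 3 D30 tumors lay between N2 and N4. Means were 439 ± 139 in CTRL and 841 ± 464 in D30 (SD, n = 5 each).

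The log2 difference of Cda was 0.82 (95% interval 0.07 to 1.56), with an unadjusted p of 0.0339 and an adjusted p of 0.244 (limma, Benjamini-Hochberg). It was 0.65 (-0.06 to 1.35) without T4 and 0.26 (-0.22 to 0.75) without T4 and T5. In human blood neutrophils are a known source of cytidine deaminase. In these tumors the fitted difference of 8 of 8 neutrophil markers was positive (0 called). The summed level of these markers was 681 to 3202 in CTRL and 831 to 16461 in D30, with 16461 in T5, 6094 in T2 and 3545 in T4, and Ly6g and Mpo were each at 0 in 1 CTRL tumor. Cda was at 1476 in T5, 533 in T2 and 1198 in T4, and at 327 in N1, the CTRL tumor with the highest sum (3202). Of 8 epithelial markers 7 had a positive difference and Epcam a negative one (0 called). Without T4, Krt7 and Krt18 were called higher and Epcam lower (-3.96, adjusted p = 0.00902, limma). Their sums, made up mostly of keratins, were 209950 to 335623 in CTRL and 341449 to 476102 in D30. Their mean log2 level, relative to its mean over all tumors, overlapped between groups, at -0.76 to 0.12 in CTRL and -0.52 to 0.65 in D30. The part of either cell type in the level of Cda was not tested.

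Dctd (ENSMUSG00000031562, chr8:48099092-48153233, plus strand), which deaminates deoxycytidylate to deoxyuridylate, was at 1457, 1326, 1026, 1453 and 1260.3 in the CTRL tumors. In the D30 tumors it was at 1360.3, 1334, 563, 508 and 1372. T4 and T5 were below every CTRL tumor by a wide margin, and T1, T2 and T7 lay inside the CTRL range. The log2 difference was -0.47 (-1.13 to 0.19; adjusted p = 0.466). It was -0.29 without T4, and without T4 and T5 it was 0.07 (-0.26 to 0.39).

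The 2 deaminases moved apart in T4 and T5. The ratio of reads of Cda to Dctd was 0.225, 0.321, 0.660, 0.246 and 0.325 in the CTRL tumors and 0.335, 0.399, 2.13, 2.90 and 0.398 in the D30 tumors. In T4 and T5 there were more reads of Cda than of Dctd, and in the other 8 tumors there were fewer. The groups overlapped, since N4 was above T1, T2 and T7, and the mean log2 ratio differed by 1.29 over all tumors and by 0.20 without T4 and T5. Within groups the levels of both genes moved against each other, with a Pearson correlation of -0.97 over the 10 tumors, as deviations from the group means, and of -0.95 over the 8 without T4 and T5, given as a description.

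Set against Cda, Dck was lower in every D30 tumor. The ratio of reads of Dck to Cda was 6.40, 3.28, 2.37, 3.79 and 3.92 in the CTRL tumors and 2.20, 1.78, 1.57, 0.798 and 1.63 in the D30 tumors. The groups did not overlap, with N4 and T1 nearest to each other, and T4 lay among the other D30 tumors in this measure. The mean log2 ratio was 1.91 ± 0.52 in CTRL and 0.60 ± 0.55 in D30 (SD, n = 5 each), a difference of -1.31, which was -1.32 without T4 and -1.01 without T4 and T5.

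**Figure D3:**
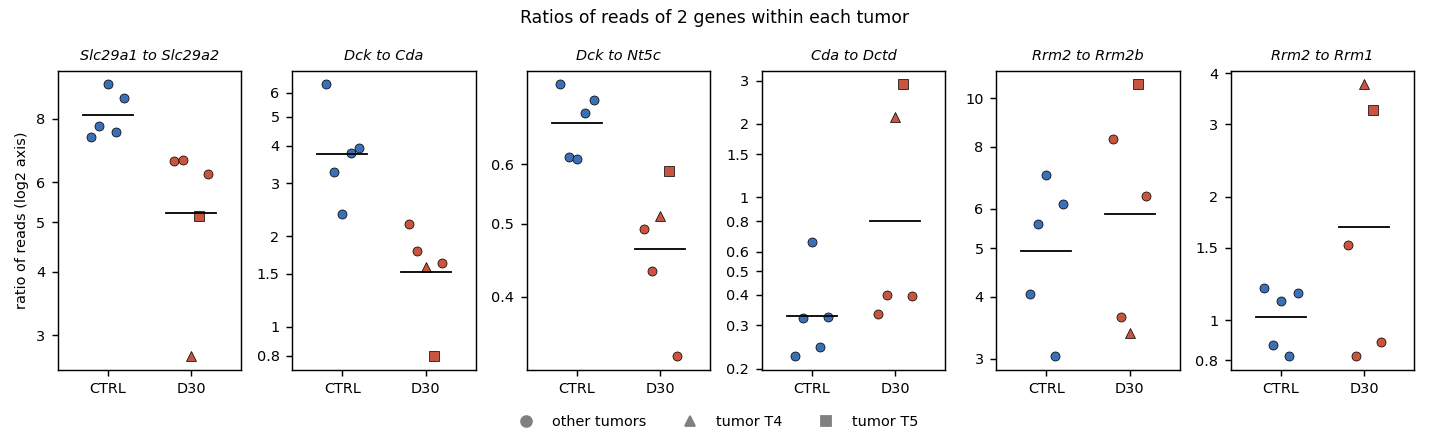
Ratio of the reads of 2 genes within each tumor (vertical log2 axis, its range set for each ratio), with CTRL in blue and D30 in red; triangles mark T4, squares T5, and lines the geometric mean of 5 tumors. The ratios of Slc29a1 to Slc29a2, Dck to Cda and Dck to Nt5c did not overlap between groups, and the other 3 did.

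Nt5c (ENSMUSG00000020736, chr11:115490420-115491862, minus strand), a cytosolic 5′-nucleotidase that acts against the kinases, was at 2734, 2271, 2630.4, 1926 and 2202 in the CTRL tumors and at 2033, 2194, 3685, 2003 and 2668 in the D30 tumors. T4 was the highest of all and the other D30 values lay inside the CTRL range. The log2 difference was 0.07 (-0.37 to 0.51; adjusted p = 0.900, limma with Benjamini-Hochberg adjustment), -0.08 without T4 and -0.03 without T4 and T5. Armc7, on the opposite strand, overlaps its exons at a mean of 275 normalized counts.

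The ratio of reads of Dck to Nt5c was 0.766, 0.614, 0.609, 0.702 and 0.731 in the CTRL tumors and 0.492, 0.432, 0.512, 0.588 and 0.334 in the D30 tumors. All D30 tumors were below all CTRL tumors, although T5 came close to N2 and N4. The mean log2 ratio differed by -0.56, and by -0.59 without T4. Both ratios share Dck and are not independent of each other.

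Rrm1 (ENSMUSG00000030978, chr7:102441695-102469771, plus strand), the large catalytic subunit of ribonucleotide reductase, had 3133, 3134, 3667, 2471 and 3057 normalized counts in the CTRL tumors and 3838, 2651, 1762, 1836 and 3483 in the D30 tumors. D30 tumors lay on both sides of the CTRL range, with T1 above it and T4 and T5 below. On the log2 scale the difference was -0.25 (-0.76 to 0.27; adjusted p = 0.643), -0.11 without T4 and 0.10 (-0.26 to 0.46) without T4 and T5.

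Rrm2 (ENSMUSG00000020649, chr12:24708241-24714146, plus strand), the small subunit that is made in S phase, was at 3763, 2727, 4089, 2020.2 and 3555 in the CTRL tumors. It was at 5854, 2168, 6617, 5985 and 3083 in the D30 tumors. T1, T4 and T5 were above every CTRL tumor, while T2 and T7 were inside the CTRL range. The log2 difference was 0.47 (-0.22 to 1.16; adjusted p = 0.485) over all tumors, 0.32 without T4 and 0.12 (-0.52 to 0.75) without T4 and T5.

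The ratio of reads of Rrm2 to Rrm1 was 0.818 to 1.20 in the CTRL tumors and 1.53, 0.818, 3.76, 3.26 and 0.885 in the D30 tumors. T4 and T5 stood well above every CTRL tumor. The groups overlapped through T2 and T7, and the mean log2 ratio differed by 0.72 over all tumors and by 0.02 without T4 and T5.

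Rrm2b (ENSMUSG00000022292, chr15:37923952-37961318, minus strand), the small subunit that p53 induces and that serves outside S phase, was at 929, 488, 582, 665 and 578 in the CTRL tumors and at 707, 594, 1952, 561 and 485 in the D30 tumors. T4 alone was above the CTRL range, and T7 was just below it. On the log2 scale the difference was 0.23 (-0.52 to 0.97; adjusted p = 0.786) over all tumors, -0.12 (-0.56 to 0.32) without T4 and -0.10 without T4 and T5. The antisense gene Gm49085 overlaps its exons at a mean of 21.0 normalized counts. The ratio of reads of Rrm2 to Rrm2b overlapped between groups, at 3.04 to 7.03 in CTRL and 3.39 to 10.7 in D30.

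**Figure D4:**
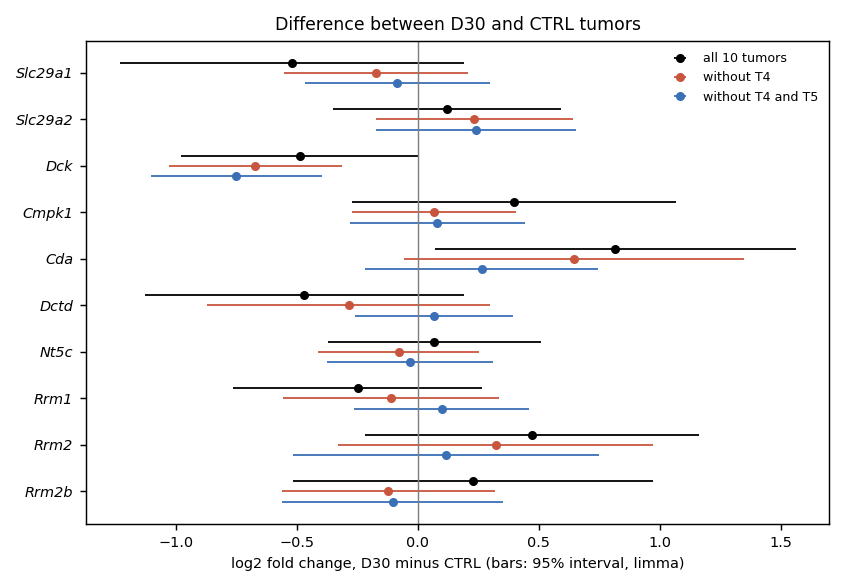
Log2 difference, D30 minus CTRL, of each gene with its 95% interval (limma) over all 10 tumors (black), without T4 (red) and without T4 and T5 (blue). The intervals of Dck lay below 0 without T4, at -1.03 to -0.31, and those of the other 9 genes held 0 in both reduced sets.

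Levels of different genes can be compared only per length, and for this each normalized count was divided by the length of the gene's principal transcript in kilobases. In the CTRL tumors Nt5c was the highest, at 2742 ± 384 normalized counts per kb (SD, n = 5). It was followed by Rrm2 (1473 ± 385), Slc29a1 (1407 ± 261) and Cmpk1 (1252 ± 221), whose ranges overlapped from neighbor to neighbor. The next were Rrm1 (774 ± 106), Dctd (622 ± 84.4), Dck (523 ± 95.8) and Cda (519 ± 164), again with overlapping neighbors. Slc29a2 (146 ± 25.7) and Rrm2b (142 ± 37.0) were the lowest and overlapped each other. The gaps in this order were those between Nt5c and Rrm2, between Cmpk1 and Rrm1 and between Cda and Slc29a2. In the D30 tumors Cda stood at 995 ± 549 per kb, in the fifth place, and Dck at 384 ± 133, in the eighth place. With the length of all annotated exons Rrm1, whose annotation holds long retained introns, moved from the fifth place in CTRL to the eighth.

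The genes most like each member were sought among 12199 genes with a mean of at least 100, by the Pearson correlation over the 10 tumors of deviations from the group means. These points share the tumors' depth and composition, and without T4 and T5 the same correlations, over 8 tumors, were 0.798 to 0.971. For Slc29a1 they were Ap1g2 (r = 0.995) and Telo2 (0.994), and for Slc29a2 Mrps5 (0.954) and Dnttip1 (0.953). For Dck they were Arl1 (0.987) and Sar1b (0.985), and for Cmpk1 Abhd17b (0.992) and Yipf4 (0.992). For Cda they were Cyb5r3 (0.986) and Pmm1 (0.986), and for Dctd Josd1 (0.980) and Aifm3 (0.979). Anapc11 (0.984) and Snrpd2 (0.983) were nearest to Nt5c and Rad54l (0.982) and Kif22 (0.975), genes of DNA repair and chromosome movement, to Rrm1. Rrm2 was matched least closely, by Ybx1 (0.936) and Areg (0.923), and Rrm2b was nearest to Dpy19l4 (0.992) and Nek7 (0.988).

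The neighboring genes of the pathway were read from lists compiled by hand. Of the 5 other nucleoside transporters, 2 had a positive and 3 a negative fitted difference and none was called. All 5 passed at an unadjusted p under 0.05 (limma), where 17.3% of all genes did. Slc28a3, a concentrative transporter that also takes up gemcitabine, was at 0.885 to 27.4 normalized counts in CTRL and 0 to 6.94 in D30 (log2 difference -2.54, adjusted p = 0.119, limma with Benjamini-Hochberg adjustment). Without T4 it was called lower, at -3.09 (adjusted p = 0.0273), with 0 to 1.15 normalized counts in the remaining D30 tumors, where a fitted difference depends on the pseudocount. Slc28a1, of the same family, was at 0 to 8.56 in CTRL and 4.26 to 16.0 in D30 (2.01, adjusted p = 0.156).

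Of 15 further nucleoside and nucleotide kinases 14 were tested, Nme3 being listed at 0 in every tumor. The difference was positive for 8 and negative for 6, with a median of 0.08, and 0 were called. Nme4, a mitochondrial diphosphate kinase, was at 375 to 567 in CTRL and 167 to 483 in D30 (-0.67, adjusted p = 0.249) and was called lower without T4 (-0.89, adjusted p = 0.0337). Guk1, the guanylate kinase, was at 1016 to 1654 and 1424 to 2800.1 (0.47, adjusted p = 0.284).

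Of 13 other nucleotidases and nucleotide phosphohydrolases 8 had a positive and 5 a negative difference, and 0 were called. Nt5e, the ecto-5′-nucleotidase CD73, was at 2315 to 3940.3 in CTRL and 3397 to 17893 in D30, with T4 the highest and T5 next (1.06, adjusted p = 0.176, limma with Benjamini-Hochberg adjustment). Nt5c1a, a cytosolic nucleotidase that prefers AMP, was at 7.08 to 13.7 and 8.01 to 157 (1.80, adjusted p = 0.165). Itpa, which clears deaminated purine nucleotides, was called lower without T4 (-0.51, adjusted p = 0.0484) and is named here because it was the only call of its list.

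Of 8 pyrimidine synthesis genes 3 had a positive and 5 a negative difference, and 0 were called. Shmt1, the cytosolic serine hydroxymethyltransferase that feeds thymidylate synthesis, was at 1597 to 2055 in CTRL and 358 to 1577 in D30 (-0.98, adjusted p = 0.152), and its groups did not overlap. Ctps2, a CTP synthase, was at 838 to 1397 and 1137 to 2214 (0.46, adjusted p = 0.330).

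Of 8 nucleoside breakdown genes 6 had a positive and 2 a negative difference. Upb1, the last enzyme of pyrimidine degradation, rose from 2.89 to 8.56 normalized counts in the CTRL tumors to 19.5 to 91.6 in the D30 tumors, with no overlap (2.85, 95% interval 1.77 to 3.93; adjusted p = 0.00921, limma with Benjamini-Hochberg adjustment). Upp1, uridine phosphorylase, was at 269 to 710.1 and 568 to 1339 (0.95, adjusted p = 0.123). Without T4, Dpys was called lower as well (-2.48, adjusted p = 0.0453). Its normalized counts were 5.31 to 27.4 in CTRL and 0 to 13.9 in D30, on 0 to 33 reads per tumor, where a fitted difference depends on the pseudocount.

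Of 23 S phase and proliferation genes, read beside the subunits of ribonucleotide reductase, 4 had a positive and 19 a negative difference, with a median of -0.28, and 0 were called. Bub1, a mitotic checkpoint kinase, was at 571 to 1339 in CTRL and 374 to 899 in D30 (-0.84, adjusted p = 0.145). Mcm4, a subunit of the replicative helicase, was at 2490.3 to 3341 and 1603 to 3370.4 (-0.36, adjusted p = 0.442). The median was -0.20 without T4 and 0.11 without T4 and T5.

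Of 19 p53 target genes, read beside Rrm2b, 14 had a positive and 5 a negative difference, with a median of 0.37. Btg2, an antiproliferative gene, rose from 870.3 to 1247 in the CTRL tumors to 1711 to 3318 in the D30 tumors (1.18, adjusted p = 0.0103, limma with Benjamini-Hochberg adjustment). Gdf15, a secreted stress factor, rose from 11.6 to 58.5 in CTRL to 79.8 to 211 in D30 (2.08, adjusted p = 0.0253). The groups overlapped for neither gene, and without T4 Bbc3, Phlda3 and Perp were called higher too. The injected cells carry a mutant Trp53 allele, and the log2 difference of Rrm2b was 0.23 beside the median of 0.37 of these genes over all tumors. Without T4 it was -0.12 beside 0.27, and without T4 and T5 it was -0.10 beside 0.16.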

How the data were processed

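Strand-specific RNA libraries of 10 tumors were sequenced in pairs by the authors, who trimmed the reads and aligned them with STAR 2.7.0e. The submitters' processing notes name GRCm39 and DESeq2, while the methods name hg38; the identifiers are mouse. The annotation release and counting settings, strand included, are not given in the sources used here. The authors deposited 1 table of normalized signal, gene counts divided by a size factor per tumor. Whole reads were recovered from 100% of the values (within 0.1 read), and the size factors were those that DESeq2 gives on these reads.

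Columns were assigned to groups by their letter. Identifiers were matched without version to GENCODE M21 (GRCm38), which named 52083 genes (94.1%), and positions are those of M21. D30 was compared with CTRL by limma 3.58.1 (R 4.3.3) with a mean-variance trend on log2(normalized count + 1), without covariates, over the 24560 genes with a mean of at least 1. Adjustment was by Benjamini-Hochberg over all of them, and an adjusted p under 0.05 was a call. Log2 differences of low genes are understated on this scale. The design text calls the tumors independent replicates, and p values set the group difference against the spread between tumors within groups, as moderated by limma. The script was tested on simulated data. Alternatives were pseudocounts of 0.5 and 10, no filter and a filter at 10, other scalings, edgeR 4.0.16, DESeq2 1.42.0 and limma-voom on the recovered reads, and leaving out tumors. Ratios, lists and correlations were described without tests.

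All 10 members are named, with the 2 genes of smallest p in each pathway list and the 2 genes most like each member. Dpys, Itpa, Bbc3, Phlda3, Perp and the markers were named after their values were seen. The members and lists were chosen with earlier results of these data known. Promoter windows came from RefSeq.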

Additional observations from a re-analysis of the deposited data

Results flagged for a closer look

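Among 60 groups of 5 tumors, one for each member, ratio and named pathway gene in each condition, 10 held a tumor whose gap to its nearest neighbor exceeded Dixon's 95% critical value for the group's range, where chance gives about 1 in 20 groups. T4 accounted for 5 of the 10. Among the members, Dck in T4 was at 1886 normalized counts against 891 to 1178 in the other D30 tumors, Cmpk1 in T4 at 12886 against 3819 to 4794, and Rrm2b in T4 at 1952 against 485 to 707. Cda in N4 was at 677 against 327 to 425 in the other CTRL tumors, and the ratio of Cda to Dctd in N4 was 0.660 against 0.225 to 0.325.

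Among the other genes, Slc28a3 in T4 was at 6.94 normalized counts against 0 to 1.15. Nme4 in N1 was at 567 against 375 to 424. Ctps2 stood out in N1, at 1397 against 838 to 949, and in T4, at 2214 against 1137 to 1227. Gdf15 in T5 was at 211 against 79.8 to 109.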

How the results depend on the processing

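The count of called genes was 678, and it moved most with the tumors used: from 279 to 1573 when 1 tumor was left out (279 without N2, 340 without N5, 332 without N6, 433 without T7 and 1573 without T4), 2418 without T4 and T5, and 1867 with DESeq2. The count of called members was 0 and became 1, Dck, without T4 (range 0 to 1 over tumors left out) and 1 without T4 and T5. Of 220 member values under 22 alternatives, 209 kept their direction and side of the threshold, 9 reversed and 2 (Dck) passed it. Scaling by library size, which lowered the median of all genes to -0.27, turned Slc29a2 to -0.10 and Nt5c to -0.16. With 1 tumor left out, Nt5c ranged from -0.079 (without T4) to 0.14, at -0.00076 without N5, and Rrm2b from -0.12 (without T4) to 0.38. Without T4 and T5 together, Nt5c was -0.032, Rrm2b -0.10, Dctd 0.067 and Rrm1 0.10. No such reversed value was called. Over all alternatives the adjusted p of Dck ranged from 0.0112 to 0.454 and that of Cda from 0.101 to 0.511. Each member rested on at least 259 reads in every tumor, while Upb1, Dpys, Slc28a1 and Slc28a3 rest on few reads. No paired analysis was possible by replicate number because the column numbers are not the replicate numbers of the labels. The methods describe no pairs of tumors, and mice with tumors were randomized to the treatments. Whether T4's GC and length pattern sets its member values was not tested.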
